A study of Arabidopsis thaliana with 108 samples.

Results

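The regions described here carried a peak of H3K27me3 in wild-type Arabidopsis seedlings and none in seedlings that lack TRB1, TRB2 and TRB3. Members were chosen by merging the H3K27me3 peaks of 2 Col-0 lists and 2 trb1/2/3 lists on chromosomes 1 to 5 wherever they shared a base, and by keeping the merged regions with a peak in both Col-0 lists and in neither trb1/2/3 list. This rule took 1249 of 11698 merged regions, or 10.7% of all regions, and nothing is read from that count, since the H3K27me3 lists of the same seedlings made it. The regions with a peak in all 4 lists numbered 5935 and are called kept regions below.

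H3K27me3 is a histone mark of repressed genes, placed by Polycomb repressive complex 2 (PRC2) and in plants often spread over whole gene bodies. TRB proteins are Myb-type DNA-binding proteins that recognise telomere-like repeats within chromosomes and are known partners of PRC2. JMJ14 is a demethylase that removes H3K4me3, the mark of active gene starts, and it works with the transcription factors NAC050 and NAC052, which bind a paired CTTG and CAAG motif.

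All values came from peak lists of chromatin immunoprecipitation with sequencing (ChIP-seq), 46 of them among the 108 samples of the series. Col-0 is the wild type, trb1/2/3 is a triple T-DNA insertion mutant, dwarfed and infertile, and jmj14-1 is a T-DNA mutant of JMJ14. The labels give seedlings 2 to 3 weeks old for H3K27me3 in Col-0 (2 lists) and trb1/2/3 (2), and for H3K4me3 in Col-0 (2), trb1/2/3 (2) and jmj14-1 (1). FLAG-TRB1, FLAG-TRB2 and FLAG-TRB3 (4 lists each) and FLAG-JMJ14 (2) are epitope-tagged proteins under their own promoters, the TRB ones in the mutant of the same gene, sampled from floral tissue of 5 to 6 weeks. The fwa line is an epiallele in which the FWA gene is expressed ectopically, and TRB1-ZF, TRB2-ZF and TRB3-ZF carry the TRB fused to ZF108, a zinc finger that binds the FWA promoter, in the fwa background, as transformants that the methods say were picked for early flowering. For fwa and these lines, H3K27me3 (2 lists each) and H3K4me3 (3, 3, 2 and 2 lists, in the order fwa, TRB1-ZF, TRB2-ZF, TRB3-ZF) are labelled floral tissue of 5 to 6 weeks, while the study's methods give leaves of a younger age. Myc-tagged JMJ14 (5 lists) came from leaves of 3 to 4 weeks, with and without a TRB-ZF.

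Some limits of the lists come before the results. The second H3K27me3 lists of TRB1-ZF and TRB2-ZF hold the same 11610 peaks, so 1 list was deposited under both names and the line it came from is unknown. Counts over those lines include it under both names and are also given without it. For Myc-JMJ14, the deposited lists and the labels name different backgrounds, and these lists are given only as a range. A list says where a peak was called, so a lower level of H3K27me3 within a peak that remains is not seen, and sequencing depth is unknown. Fold below is the peak caller's enrichment at a peak, rank is the percentile of that fold among all peaks of its own list, and a region takes both from its strongest peak in the list. Peak lists hold no expression, so the labelled tissues could not be checked against marker genes. With 2 libraries against 2, the smallest 2-sided exact permutation p is 0.333, so the comparisons below give counts, shares and the spread over libraries.

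The sequences that follow show the motifs inside members, as read on the plus strand of TAIR10. The first 4 are the telomere-like hexamer TTAGGG, or CCCTAA where it lies on the other strand, in capitals with 40 bases on each side, in the members with the strongest Col-0 peaks among those that held the hexamer outside untranslated sequence and had a peak in all 12 FLAG-TRB lists.
AT5G06730, chr5:2081451-2081536: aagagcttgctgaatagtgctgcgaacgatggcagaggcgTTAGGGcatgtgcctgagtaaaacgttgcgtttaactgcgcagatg
AT3G10910, chr3:3413189-3413274: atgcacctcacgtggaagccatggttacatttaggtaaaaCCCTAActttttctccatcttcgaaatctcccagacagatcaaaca
AT5G05720, chr5:1716818-1716903: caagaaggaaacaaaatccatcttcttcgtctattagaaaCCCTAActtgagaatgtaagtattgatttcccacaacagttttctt
RPL12-B, chr3:10323212-10323297: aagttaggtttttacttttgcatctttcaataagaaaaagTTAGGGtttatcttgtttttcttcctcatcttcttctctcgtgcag

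In the AT5G06730 and AT3G10910 windows the hexamer sits in a coding exon, and in the AT5G05720 and RPL12-B windows it sits between genes. Each printed hexamer was the one nearest the Col-0 H3K27me3 summit whose window lay inside the member and outside untranslated sequence. Distances from other hexamers of these members to the TRB summits were not measured. The median distance from the hexamer to the summits of the 12 FLAG-TRB lists was 20 bp at RPL12-B (3 to 137 bp), 318 bp at AT3G10910, 523 bp at AT5G06730 and 598 bp at AT5G05720. So of these windows, that of RPL12-B, a gene for a ribosomal protein of the L12 type, had the hexamer nearest to the TRB summits. The next 3 windows show the paired motif, a CTTG and a CAAG 5 bases apart, in capitals, in members on peaks of both FLAG-JMJ14 lists. Each pair was chosen in the same way, by nearness to the Col-0 H3K27me3 summit and not to the JMJ14 summits.
AT1G46840, chr1:17270328-17270420: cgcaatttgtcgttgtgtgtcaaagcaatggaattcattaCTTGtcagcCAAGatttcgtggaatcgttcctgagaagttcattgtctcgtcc
AT3G00700, chr3:15604418-15604510: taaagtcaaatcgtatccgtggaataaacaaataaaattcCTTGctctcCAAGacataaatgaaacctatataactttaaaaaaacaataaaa
AT3G45760, chr3:16803700-16803792: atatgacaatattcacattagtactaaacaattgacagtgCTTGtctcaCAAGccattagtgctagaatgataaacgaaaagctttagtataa

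The pair lay 98.0 bp from the FLAG-JMJ14 summits (median of 2 lists) at AT1G46840, an F-box gene, 274 bp away at AT3G00700, an RNA gene, and 1237 bp away at AT3G45760. Over all members, TTAGGG on either strand was found in 377 (30.2%), against 54.8% of kept regions and 35.7% of all merged regions. The longer telobox AAACCCTA was in 241 members (19.3%), 31.4% of kept regions and 19.6% of all. Members are short, and per length the order turned: members held 0.598 TTAGGG per kb, against 0.418 in kept regions, and 0.331 AAACCCTA per kb, against 0.178. In classes of like width, TTAGGG was in 9.11% of members under 500 bp, against 9.39% of kept regions, and in 72.9% against 75.6% from 2000 bp. Between these widths it was more frequent in members. By Col-0 rank it was more frequent in members only from 40 to 60, with 44.3% against 38.2%. AAACCCTA was more frequent in members in every class. The paired motif was in 56 members (4.48%), 11.6% of kept regions and 7.17% of all, or 0.0605 per kb against 0.0484 in kept regions. By Col-0 rank it was less frequent in members in every class, from 2.29% against 7.10% under 20 to 8.60% against 14.6% from 60. By width the order varied. From narrowest to widest it was in 1.52%, 4.03%, 5.97% and 29.2% of members, against 0.939%, 4.06%, 8.27% and 16.8% of kept regions. Median GC content was 37.6% in members and 35.4% in kept regions, and its part in these densities was not tested. A match is a description of the letters and not a bound site.

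Regions that lost their peak were narrow and weakly marked in Col-0. These values come from the lists that chose the members and are given as a description. Members had a median width of 625 bp (quartiles 402 and 1003 bp, range 175 to 4448 bp), against 2003 bp in kept regions. The median fold was 2.1 in Col-0 library 1 and 2.21 in library 2, against 3.38 and 3.80 in kept regions, and the median rank was 28.7 and 32.5, against 68.1 and 69.4. In the weaker of the Col-0 libraries the median −log10 q was 4.33 in members and 20.6 in kept regions, and 158 members (12.7%) reached 10 in both, against 72.2% of kept regions. Only 6 members had a mean rank over 80. Members lay on all 5 chromosomes, at 9.14 to 11.5 per Mb, and 357 of them (28.6%) had a trb1/2/3 peak within 1000 bp, with a median distance of 2700 bp.

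**Figure D1:**
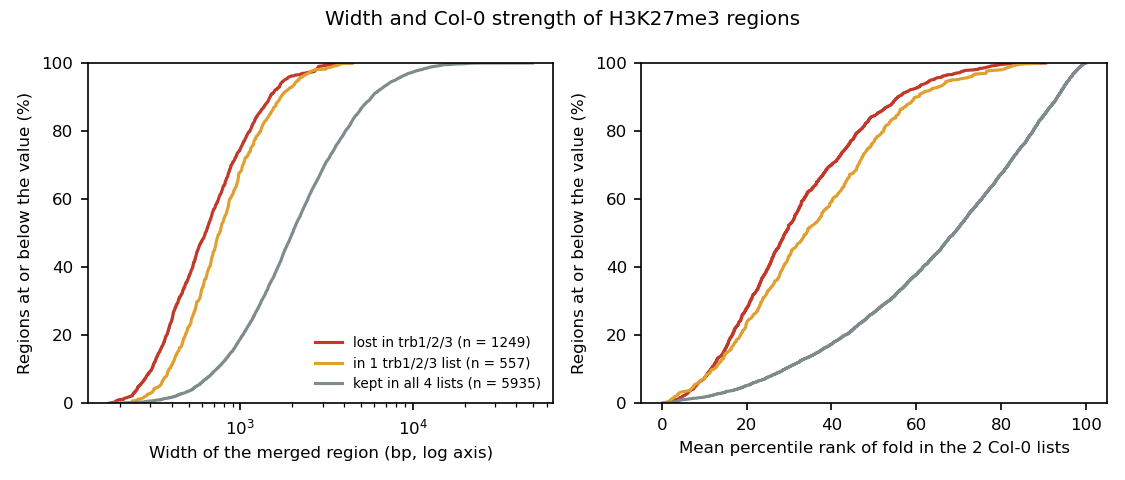
Cumulative share of regions (vertical axis, %) by width in bp on a log axis (left) and by mean percentile rank of fold in the 2 Col-0 lists (right), for members, for regions with a peak in just 1 trb1/2/3 list, and for kept regions. The median width is 625 bp in members and 2003 bp in kept regions, and the curve of the 557 neighbouring regions runs close to that of the members.

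Just outside the rule were 557 regions with a peak in both Col-0 lists and in 1 of the trb1/2/3 lists, 373 in library 1 and 184 in library 2. Their median width was 757 bp and their median folds in Col-0 were 2.18 and 2.34, slightly above those of the members. Their trb1/2/3 peak had a median −log10 q of 3.30, and in 460 of the 557 it was under 5. The number of members also followed the lists used. Without Col-0 library 1 the rule took 2364 regions, without Col-0 library 2 it took 2048, with peaks up to 500 bp apart joined 831, and with only Col-0 peaks of −log10 q of at least 10 it took 158.

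TRB peaks lay on 360 of the members (28.8%), counted as a stretch covered in at least 2 of the 4 lists of a TRB protein, against 40.2% of kept regions and 28.1% of all merged regions. TRB1 was on 279, TRB2 on 309 and TRB3 on 250, and all 3 were on 201 (16.1%, against 13.8% of all regions). Over the 4 lists of each protein, the share of members with a peak was 17.2% ± 8.73 (SD, n = 4) for TRB1, 21.1% ± 9.36 (SD, n = 4) for TRB2 and 17.9% ± 11.3 (SD, n = 4) for TRB3. Among kept regions the lists gave 10.9% to 30.5% for TRB1, 19.1% to 44.2% for TRB2 and 14.2% to 45.6% for TRB3. In members the ranges were 8.97% to 26.0%, 10.6% to 31.3% and 6.24% to 33.1%. The ranges over lists overlapped between the kinds of region, but within every single FLAG-TRB list the share was lower in members. The lists ranged from 3279 to 22509 peaks, and without replicate 4 of each protein, which for TRB2 and TRB3 is the longest list, the count of members with TRB was 233.

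Within classes of like width, the order of members and kept regions was the reverse. TRB lay on 17.4% of members under 500 bp and on 5.16% of kept regions of that width. From 500 to under 1000 bp the shares were 27.3% and 20.8%, from 1000 to under 2000 bp 45.1% and 31.8%, and from 2000 bp upwards 62.5% of 48 members and 53.8% of kept regions. In each of the 3 narrower classes, 12 of 12 FLAG-TRB lists gave a higher share for members, and in the widest 8 of 12 did. Classes of like Col-0 rank gave the same order, with 18.9% against 13.2% under rank 20, 24.2% against 14.7% from 20 to 40, 37.9% against 23.3% from 40 to 60, and 64.5% against 52.9% from 60. By bases, the share of member sequence under a peak was 10.1% and of kept sequence 4.50% in replicate 3 of TRB1, while in replicate 1 of TRB3 it was 1.80% and 2.12%. No FLAG-TRB list had a peak on 757 members (60.6%), and all 12 had one on 49 (3.92%), against 62.7% and 4.07% of all merged regions, so both shares were near the background.

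**Figure D2:**
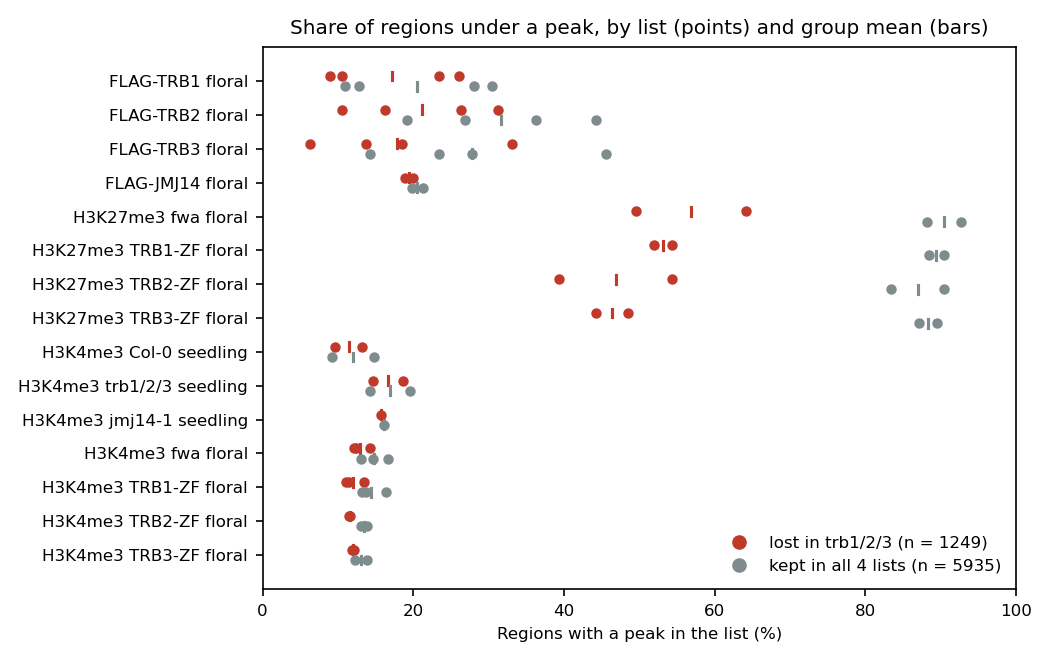
Share of members (n = 1249) and of kept regions (n = 5935) with a peak, in % on the horizontal axis, by group of lists: each point is 1 list and each bar the group mean. The FLAG-TRB points spread widely and overlap between both kinds of region, though each list has a lower share in members. H3K27me3 of fwa and the TRB-ZF lines lies between 39.4% and 64.1% of members and above 83% of kept regions.

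Members with more TRB lists were wider and held the hexamer more often. From 0 lists to all 12, the median width of members was 531 bp with no list, 767.5 bp with 1 to 3, 788 bp with 4 to 7, 902.5 bp with 8 to 11 and 1039 bp with 12. TTAGGG was in 18.6%, 41.2%, 44.5%, 58.5% and 61.2% of them, and peaks of both FLAG-JMJ14 lists lay on 6.74%, 19.2%, 34.2%, 51.9% and 61.2%. These points share width, which rises along them, and its part was not tested. Around the mean Col-0 summit of the members, the share under a FLAG-TRB1 peak was 5.22% at the summit (4 lists, 1.60% to 9.29%) and 11.5% at 900 bp to its right (5.52% to 18.2%). At 900 bp to the left FLAG-TRB1 had 9.55%. The dip was smaller for FLAG-TRB2, with 7.13% at the summit and 10.4% at 900 bp to the right, and for FLAG-TRB3, with 6.71% and 8.37%. FLAG-JMJ14 was instead highest at the summit, with 12.3% (2 lists, 12.2% and 12.5%) and 7.61% at 900 bp to the right.

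**Figure D3:**
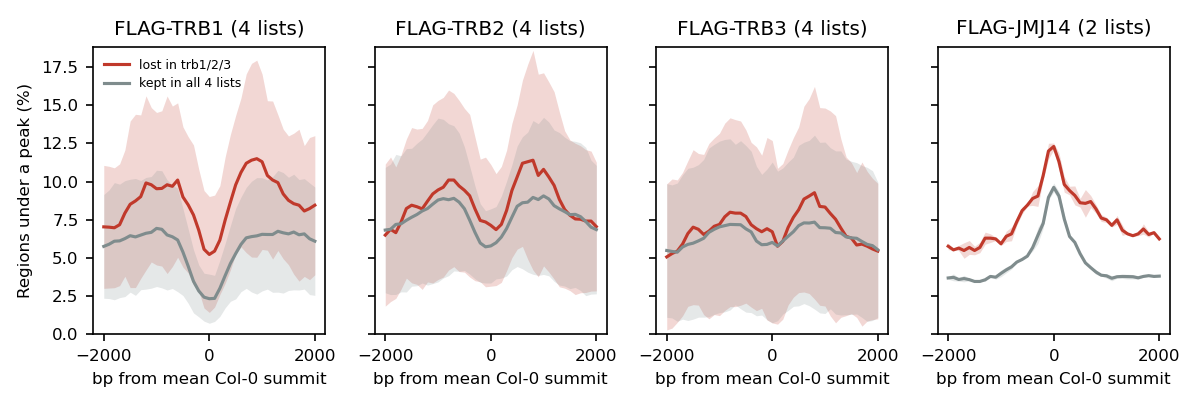
Share of regions under a peak (vertical axis, %) by distance in bp from the mean Col-0 H3K27me3 summit, for members and kept regions. Lines are the mean over the lists of a protein and bands are that mean ± SD over the lists. FLAG-TRB1 dips at the summit, to 5.22% in members and 2.32% in kept regions, and FLAG-JMJ14 is highest there, at 12.3% and 9.62%.

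JMJ14 peaks of both lists lay on 224 members (17.9%), against 18.9% of kept regions and 14.1% of all merged regions. By list they lay on 236 and 250 members. In all 4 width classes the share was higher in members, at 10.8%, 17.4%, 26.5% and 43.8%, against 4.23%, 11.3%, 19.0% and 22.2% in kept regions. TRB and JMJ14 met on 146 members (11.7%), against 9.33% of all merged regions and 13.5% of kept regions. JMJ14 lay without TRB on 78 (6.24%), against 4.75% of all and 5.39% of kept regions. TRB lay without JMJ14 on 214 (17.1%), against 18.8% of all and 26.7% of kept regions. Neither lay on 811 (64.9%), against 67.1% of all merged regions and 54.5% of kept regions. The proteins were mapped in floral tissue and the H3K27me3 that defines the members in seedlings, and tissue and antibody cannot be told apart. Of the members with JMJ14, 198 (88.4%) lay on a protein-coding gene, against 96.6% of kept regions with JMJ14, and 30 (13.4%) held the paired motif, against 34.4% of kept regions with JMJ14. Of the 56 members with the paired motif, 30 (53.6%) had JMJ14. No difference from kept regions is read from this share. The motif was in 689 kept regions, and in 34.4% of the 1120 kept regions with JMJ14. Myc-JMJ14 in leaves covered 0.240% to 5.84% of members over its 5 lists and 0.859% to 2.51% of kept regions.

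**Figure D4:**
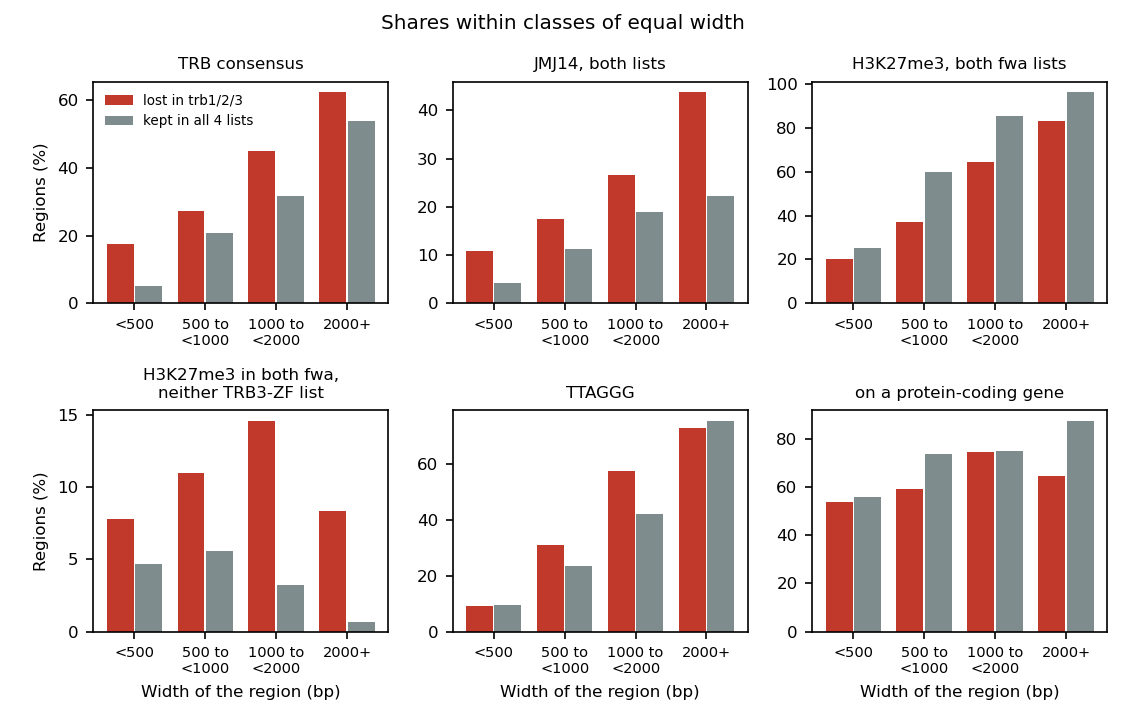
Share of members and of kept regions (vertical axis, %, from 0) with 6 properties in 4 classes of width in bp (horizontal axis). TRB and JMJ14 are more frequent in members in every class, H3K27me3 in both fwa lists is less frequent in every class, and loss of H3K27me3 in TRB3-ZF runs from 7.81% to 14.6% of members and from 0.673% to 5.59% of kept regions.

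Counted by region, without regard to width, H3K4me3 lay on members about as often as on other regions. In 983 members (78.7%) none of the 5 seedling lists had a peak, against 78.8% of all merged regions and 75.9% of kept regions. Peaks of both Col-0 lists lay on 115 members (9.21%), against 9.17% of all regions, and peaks of both trb1/2/3 lists on 174 (13.9%), against 12.4%. By library, 165 and 120 members had H3K4me3 in Col-0 and 232 and 182 in trb1/2/3, and in kept regions 876 and 547 had it in Col-0 and 1162 and 847 in trb1/2/3. As shares these were 13.2% and 9.61% of members in Col-0 and 18.6% and 14.6% in trb1/2/3, and 14.8% and 9.22% of kept regions in Col-0 and 19.6% and 14.3% in trb1/2/3, so members and kept regions had like shares in each library. By bases, H3K4me3 of Col-0 covered 8.82% and 6.47% of member sequence, against 3.46% and 1.98% of kept sequence. In trb1/2/3 it covered 12.5% and 9.03%, against 4.63% and 3.03%. A gain, with a peak in both trb1/2/3 lists and neither Col-0 list, was called at 38 members (3.04%). The background was 2.54% of all merged regions and 3.69% of kept regions, so the share without regard to width or rank is near it. In the classes of Col-0 rank, from weakest to strongest, gains lay on 2.29%, 2.48%, 3.55% and 7.53% of members. In kept regions they lay on 0.968%, 1.38%, 2.47% and 4.77%. These shares rest on few regions, 8, 13, 10 and 7 members and 3, 10, 30 and 176 kept regions. By width, members had the higher share except from 2000 bp upwards, with 1 of 48 members (2.08%) against 4.31% of kept regions. Without Col-0 library 1 the gains were 67 and without trb1/2/3 library 2 they were 70. No member lost H3K4me3 by the opposite rule, against 0.282% of all regions. In the jmj14-1 list alone, 40 members (3.20%) had H3K4me3 with none in Col-0, against 2.11% of all regions, and 1 member had it in both Col-0 lists and not in jmj14-1, against 0.137%. Of the members with JMJ14, 21 (9.38%) had H3K4me3 in jmj14-1 and not in Col-0, and 10 (4.46%) gained it in trb1/2/3, against 7.5% and 5.36% of kept regions with JMJ14.

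The fwa plants, whose TRB genes are intact, kept a peak at only part of the members. H3K27me3 peaks of both fwa lists lay on 481 members (38.5%), against 85.0% of kept regions and 51.3% of all merged regions. In fwa library 1, 619 members had a peak and in library 2, 800, and 311 (24.9%) had none in either, against 29.4% of all merged regions. The share rose with width, from 92 of 461 members under 500 bp to 40 of 48 (83.3%) from 2000 bp upwards, and in each width class it was below that of kept regions (25.4% to 96.5%). It also rose with Col-0 strength, from 18.2% of the 313 weakest members to 72.8% of the 312 strongest. Genotype, tissue and age differ together between these lists and the Col-0 seedlings and cannot be told apart. Among the members without H3K27me3 in fwa, 56 of 311 had H3K4me3 in both Col-0 lists, against 24 of 481 of those with H3K27me3 in both.

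Counted with both lists of each line, TRB3-ZF had the most members that lost their peak among the TRB-ZF lines. With a peak in both fwa lists and in neither TRB3-ZF list, 131 members (10.5%) were called lost, against 3.27% of all merged regions, 2.36% of kept regions and 8.98% of the regions with a peak in 1 trb1/2/3 list. By width, from the narrowest class to the widest, 36 of 461, 52 of 472, 39 of 268 and 4 of 48 members were lost, against 10 of 213, 51 of 912, 59 of 1839 and 20 of 2971 kept regions. Without fwa library 1 the count was 263. Gains in TRB3-ZF were called at 67 members (5.36%), against 5.25% of all regions, which is at the background, and at 155 without fwa library 2. Between fwa and each TRB-ZF line the labelled tissue and age are the same.

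The other lines gave smaller counts with both lists. In TRB1-ZF, 38 members (3.04%) were lost, against 1.17% of all regions, and 25 (2.00%) were gained, against 0.906%. In TRB2-ZF, 74 members (5.92%) were lost, against 2.19%, and 30 (2.40%) were gained, against 1.18%. These counts rest on the list deposited under both names: without it, TRB1-ZF had 75 losses and 56 gains and TRB2-ZF had 167 losses and 41 gains. With 1 library, TRB3-ZF had 181 or 189 losses, so on that footing TRB2-ZF was close to it. Leaving out TRB1-ZF library 1 gave 117 losses and 77 gains, and leaving out TRB2-ZF library 1 gave the same, since the shared list alone then stood for each line. Without fwa library 1 the losses were 137 in TRB1-ZF and 186 in TRB2-ZF, with 56 and 61 gains, and without fwa library 2 they were 75 and 131, with 98 and 85 gains. All of these counts grow with a list fewer, as the rule then asks for fewer lists. Over the H3K27me3 lists of fwa and the 3 lines, 189 members (15.1%) had a peak in all 8, against 40.2% of all merged regions and 73.0% of kept regions, and 169 (13.5%) in none, against 16.8% and 1.47%. Without the list deposited under both names, 196 members had a peak in all 6 and 177 in none.

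H3K4me3 calls between fwa and the TRB-ZF lines were rare at members. In TRB1-ZF, 1 member gained it, against 0.0427% of all regions, and none lost it, against 0.0171%. In TRB2-ZF, 2 gained it, against 0.0684%, and 3 lost it, against 0.103%. In TRB3-ZF none gained it, against 0.214%, and 1 lost it, against 0.188%.

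Of the members, 757 (60.6%) lay on the body of a protein-coding gene, against 80.4% of kept regions and 66.2% of all, and 378 lay on no gene of any type. The mean Col-0 summit fell in an exon at 45.3% of members, in a promoter (up to 1 kb upstream of a gene) at 27.9%, between genes at 21.9% and in an intron at 4.96%, against 62.1%, 16.7%, 14.6% and 6.57% of kept regions. Together they touched 741 of 27444 protein-coding genes (2.70%), while kept regions touched 5915 (21.6%), and 75 genes were under both. By annotated product, F-box genes, whose proteins pick targets for ubiquitination, were under members at 53 of 653 (8.12%). GDSL lipase genes were under members at 8 of 101 (7.92%), genes of pectin enzymes, which act on the cell wall, at 15 of 259 (5.79%), and MADS-box genes at 6 of 120 (5.00%). No WRKY gene of 72 was under a member, and 39 of them (54.2%) were under kept regions. Each of these classes is also long on kept regions, with 45.6% of F-box genes and 46.7% of MADS-box genes.

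Most of the listed developmental, transporter and PRC2 genes lay under kept regions. Of 89 genes in lists of floral MADS-box genes, KNOX, YABBY, WOX and PLETHORA genes, seed maturation regulators, floral repressors, the FT family, PIN and PHT1 transporters, CUC genes and PRC2 subunits, 67 were under kept regions and 4 under members. Of all protein-coding genes, 21.6% were under kept regions and 2.70% under members, so no depletion under members is read from these 4 genes. Genes under neither included 6 PRC2 subunits. All 13 floral organ MADS-box genes, all 6 YABBY genes and all 4 class I KNOX genes were under kept regions and none under a member. The 4 under members were MAF4, MAF5, AIL7 and PHT1;8, and MAF5 was also under a kept region. These lists were drawn up with earlier results of these data known, and their counts are a description.

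MAF4 and MAF5 are floral repressors related to FLC that stand side by side on chromosome 5. The MAF4 member (chr5:25992198-25995026) had folds of 3.68 and 5.13 in the Col-0 libraries and no peak in trb1/2/3, the nearest lying 2609 bp away. In fwa it had 4.91 and 4.43, and it had a peak in every TRB-ZF list, with 3.14 and 3.84 in TRB3-ZF. FLAG-TRB peaks lay on it in 7 of 12 lists and JMJ14 in none. At MAF5 the member (chr5:25999661-26001348) had 3.78 and 3.76 in Col-0, 2.40 and 5.30 in fwa, and 2.09 in 1 of the TRB3-ZF lists, with no TRB or JMJ14 peak. Its folds were 2.58 in TRB1-ZF and 2.71 in TRB2-ZF, and 2.91 in the list deposited under both names. So both members had a peak in both fwa lists, and they differed in TRB occupancy.

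AIL7, an AINTEGUMENTA-like transcription factor gene, had a member over its body (chr5:26185804-26187173) with folds of 3.44 and 4.03 in Col-0 and 1.94 and 3.64 in fwa. It gained H3K4me3, with folds of 2.12 and 3.71 in trb1/2/3 and no peak in Col-0 or jmj14-1. No FLAG-TRB or FLAG-JMJ14 peak lay on it. At PHT1;8, a phosphate transporter gene, 2 members lay within the gene, at chr1:7254573-7254898 with Col-0 folds of 2.25 and 2.08, and at chr1:7257966-7258650 with 1.9 and 1.92. The first had peaks of both FLAG-JMJ14 lists, at 3.75 and 3.11, and of 7 FLAG-TRB lists, and the second had 1 FLAG-JMJ14 peak and no FLAG-TRB peak. Neither had H3K4me3 in any seedling list.

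The light-harvesting LHCB genes, whose proteins bind chlorophyll in the antenna of photosystem II, stood apart from the developmental lists: all 9 of the LHCB1, LHCB2 and LHCB3 genes were under members and none under a kept region. This list was taken as a contrast of highly transcribed genes, also with earlier results known. The strongest peak was at CAB1 (chr1:10477937-10479174), a region that also reaches NRPA2, a gene for an RNA polymerase I subunit, with folds of 4.75 and 4.12 in Col-0. It had no H3K27me3 in any fwa or TRB-ZF list, no TRB peak and no JMJ14 peak. H3K4me3 lay there in every seedling list, with folds of 4.59 and 6.28 in Col-0, 6.45 and 4.12 in trb1/2/3 and 4.39 in jmj14-1. H3K4me3 and H3K27me3 thus had peaks over the same region in Col-0, and these lists cannot tell whether both were on the same chromatin.

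LHB1B2 (chr2:14522280-14523623, with the end of RWA3 and an antisense RNA gene) had H3K27me3 folds of 3.64 and 4.84 in Col-0 and H3K4me3 folds of 4.13 and 5.89. CAB2 (chr1:10474647-10476002) had 2.62 and 3.48 for H3K27me3, a FLAG-TRB peak in 11 of 12 lists, and FLAG-JMJ14 folds of 3.01 and 2.65. There H3K4me3 was missing from both Col-0 lists and present in jmj14-1, with 2.71, and in 1 trb1/2/3 list, with 2.65. At CAB3 (chr1:10472235-10473297) the Col-0 folds were 1.76 and 2.83, all 12 FLAG-TRB lists had a peak, at up to 4.44 in TRB1, and H3K4me3 was called in jmj14-1 only among the seedlings, at 1.77. So neighbouring LHCB1 copies differed in H3K4me3 and in TRB and JMJ14 peaks.

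The remaining LHCB genes had mean Col-0 ranks from 24.1 to 56.6. LHCB2.1 (2.72 and 3.21) and LHCB2.2 (2.52 and 3.35) each had 6 FLAG-TRB lists and both JMJ14 lists, and H3K4me3 in all 5 seedling lists. LHB1B1 had 2.14 and 2.49 and LHCB3 had 1.82 and 2.43, and the latter had neither TRB nor JMJ14. LHCB2.3 had 1.73 and 2.42, with a peak in all 12 FLAG-TRB lists and both JMJ14 lists. It was the only LHCB member with H3K27me3 among the fwa and TRB-ZF lists, at 2.55 and 2.07 in TRB3-ZF. The study kept uniquely mapping reads, and the LHCB1 and LHCB2 copies are closely similar, so the split of reads between copies is uncertain. With only Col-0 peaks of −log10 q of at least 10, 4 of the 9 genes stayed under members.

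**Figure D5:**
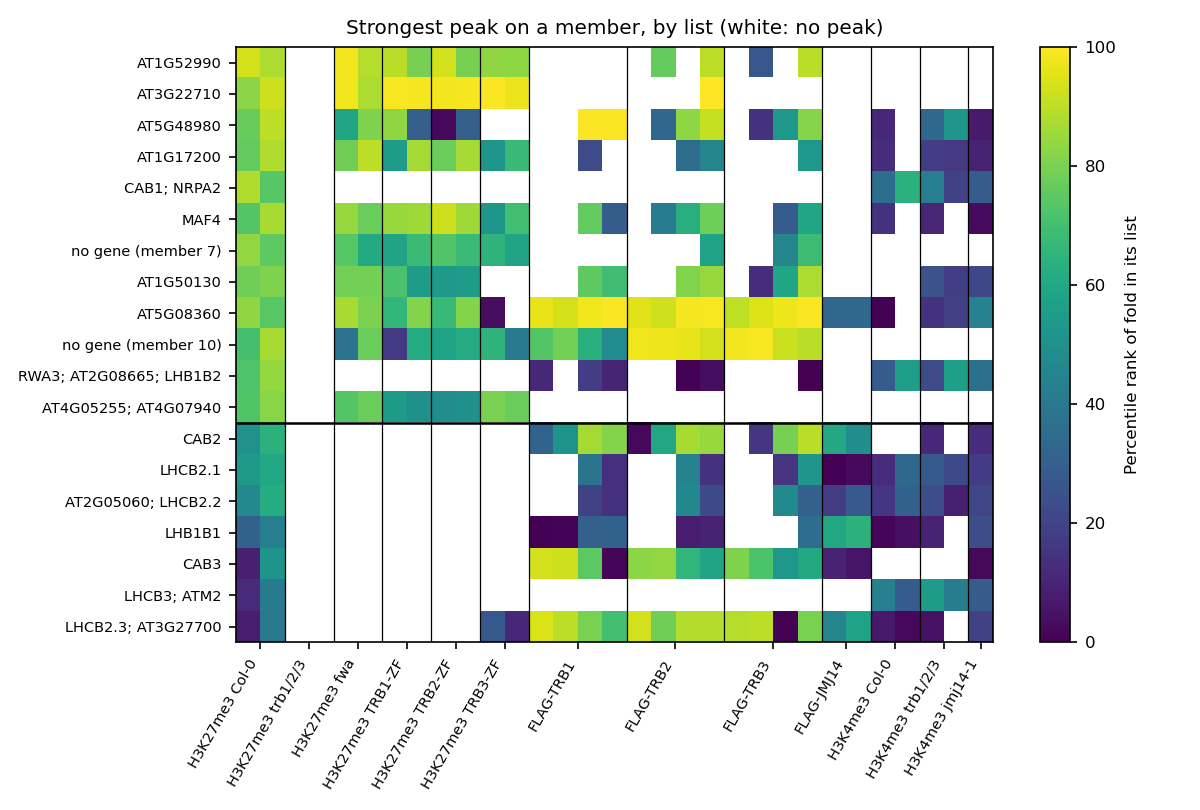
Percentile rank of fold of the strongest peak (colour, 0 to 100, white where no peak was called) for the 12 members with the highest mean Col-0 rank (upper block) and the other LHCB members (lower block), with 1 column for each list. The trb1/2/3 columns are empty by the rule, and the LHCB rows are empty in fwa and the TRB-ZF lines except LHCB2.3 in TRB3-ZF, while 10 of the first 12 rows are filled in fwa.

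Of the 12 members with the strongest Col-0 peaks, 10 had H3K27me3 in both fwa lists, the exceptions being CAB1 and LHB1B2. The first was at AT1G52990, annotated as a thioredoxin family protein (chr1:19741181-19744418), with a mean rank of 90.5, folds of 5.34 and 5.17 in Col-0 and 7.71 and 5.63 in fwa. Its nearest trb1/2/3 peak was 5276 bp away, and it had FLAG-TRB peaks in 4 of 12 lists and none of JMJ14. AT3G22710, an F-box gene (chr3:8026165-8027630), had 4.34 and 5.67 in Col-0, 7.61 and 5.47 in fwa and 8.11 and 7.13 in TRB3-ZF. A trb1/2/3 peak lay 791 bp from it, so H3K27me3 had not left that neighbourhood.

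AT5G48980, a kelch repeat gene (chr5:19860563-19861955), had 3.91 and 5.41 in Col-0, 3.28 and 4.76 in fwa and no peak in TRB3-ZF. Its H3K4me3 folds were 5.66 and 7.29 in trb1/2/3, with 2.41 in 1 Col-0 list and no peak in the other. AT1G17200, of the UPF0497 family (chr1:5877437-5879240), had 3.86 and 5.22 in Col-0 and H3K4me3 of 3.57 and 3.80 in trb1/2/3, with 2.61 in 1 Col-0 list. The transcribed pseudogene AT1G50130 (chr1:18566441-18567686) had 4.02 and 4.60 for H3K27me3 in Col-0, no peak in TRB3-ZF, and H3K4me3 of 4.66 and 4.01 in trb1/2/3 and 3.70 in jmj14-1 with none in Col-0. These were the members of the first 12, with AT5G08360, that had H3K4me3 in both trb1/2/3 lists and not in both Col-0 lists.

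AT5G08360, a gene of a DUF789 protein (chr5:2689523-2690847), was the strongest member with a peak in every FLAG-TRB list and also the strongest with JMJ14. Its folds were 5.03, 4.35, 4.03 and 4.38 for FLAG-TRB1 and 5.27, 4.89, 4.98 and 4.96 for FLAG-TRB2. FLAG-TRB3 gave 4.24, 4.97, 3.80 and 5.22, and FLAG-JMJ14 2.34 and 2.33. H3K27me3 was 4.39 and 4.14 in Col-0, 5.19 and 4.72 in fwa, and 1.99 in 1 TRB3-ZF list with none in the other. H3K4me3 was 3.10 and 4.03 in trb1/2/3 and 5.29 in jmj14-1, against 1.51 in 1 Col-0 list and none in the other. All the trb1/2/3 and jmj14-1 values lay above Col-0, with 1 or 2 libraries each. A stretch between genes on chromosome 1 (chr1:10683494-10684912) also had all 12 FLAG-TRB lists, at 5.98 and 6.09 in the first FLAG-TRB2 lists, and had neither JMJ14 nor H3K4me3.

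Other members with all 12 FLAG-TRB lists included the genes of the printed windows. AT5G06730, a peroxidase gene (chr5:2080833-2083490), had FLAG-JMJ14 folds of 5.33 and 4.91, H3K27me3 of 4.22 and 4.12 in Col-0, and no H3K4me3 in any seedling list. AT3G10910, a RING/U-box gene (chr3:3412473-3413575), had FLAG-JMJ14 at 5.12 and 5.05 and H3K4me3 in all 5 seedling lists, at 2.14 and 2.37 in Col-0, 2.93 and 3.82 in trb1/2/3 and 2.75 in jmj14-1. AT5G05720, an RNA-binding protein gene, had 1 JMJ14 list, RPL12-B and AT3G58440, a TRAF-like gene, had both, and none of these 3 had H3K4me3 in seedlings. Strong TRB and JMJ14 peaks thus occurred with and without H3K4me3. AT5G17650, a glycine- and proline-rich protein gene, had FLAG-JMJ14 at 4.52 and 4.21 and gained H3K4me3 in trb1/2/3, at 4.03 and 4.39, with no peak in Col-0 or jmj14-1.

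Of the 8 strongest members under JMJ14, 6 had no H3K4me3 in seedlings, as did 168 of all 224 members with JMJ14 and 74.3% of kept regions with JMJ14. Besides AT5G08360, AT5G06730 and AT3G10910, they were AT1G46840 (an F-box gene, FLAG-JMJ14 2.04 and 2.42), AGL97 (a MADS-box gene, 4.30 and 4.31), PLP4 (a patatin-like lipase gene, 2.49 and 3.30), MLO8 with the end of an F-box pseudogene (2.62 and 2.42) and AT3G00700 (2.33 and 3.12). These 5 had no H3K4me3 in any seedling list, jmj14-1 included, and had H3K27me3 in both fwa lists and in every TRB-ZF list, with or without the list deposited under both names.

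Among the 38 members that gained H3K4me3, the 8 with the strongest Col-0 H3K27me3 were AT1G50130, AIL7, AT1G36060, AT3G09680, AT5G17650, TRX5, AT4G14165 and NAC047. NAC047, a NAC transcription factor gene (chr3:1061150-1062156), had the highest H3K4me3 folds of these 8 in trb1/2/3, 12.3 and 9.34, with no peak in Col-0 or jmj14-1. Its FLAG-JMJ14 folds were 3.24 and 3.98, and 11 FLAG-TRB lists had a peak. A trb1/2/3 peak of H3K27me3 lay 394 bp from it. AT1G36060, annotated as an integrase-type DNA-binding protein, gained 5.78 and 9.22, with 6 FLAG-TRB lists and no JMJ14. TRX5, a thioredoxin of the h type (chr1:17074700-17076277), gained 5.39 and 6.47, also had H3K4me3 in jmj14-1 at 2.60, and had all 12 FLAG-TRB and both JMJ14 lists, with 5 TTAGGG matches. AT4G14165, an F-box gene, gained 3.80 and 4.36, and AT3G09680, a ribosomal S12/S23 protein gene, gained 2.09 and 3.10. All 8 had H3K27me3 in both fwa lists.

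The 8 strongest members that gained H3K27me3 in TRB3-ZF ranked much lower in Col-0, from place 208 to place 509 of 1249. They were AT2G06585, AT5G53740, ROPGEF10, AT4G08860, AT2G07140 and 3 stretches between genes. ROPGEF10, a gene for an exchange factor of ROP GTPases (chr5:6603225-6603536), had 2.22 and 2.60 in Col-0, none in fwa and 3.46 and 3.25 in TRB3-ZF. AT4G08860 (chr4:5642745-5644138) had 2.40 and 2.16 in Col-0, none in fwa and 3.41 and 6.71 in TRB3-ZF. All 8 also had a peak in at least 1 list of TRB1-ZF, and 7 in at least 1 of TRB2-ZF, AT2G06585 being without. Without the list deposited under both names, 3 of the 8 had a peak in TRB1-ZF and 2 in TRB2-ZF. AT2G07140, which encodes an F-box protein, was the only one with H3K4me3 in a seedling list, at 2.74 in 1 trb1/2/3 library.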

How the data were processed

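Processed peak lists of 46 samples were analysed, grouped by the labels' antibody, genotype and tissue. The authors trimmed reads with Trim Galore, aligned them to TAIR10 with Bowtie 2 (2.1.0 in the submitters' processing notes), keeping uniquely mapping reads, discarded duplicate reads (SAMtools 1.9), ran MACS2 2.1.1 for peaks and dropped sites found in repeated Col-0 libraries. For the calling control and any pooling of replicates, the answer is not given in the sources used here. The deposited lists give per peak a position, a summit, a score (not used), the fold enrichment, the −log10 p (not used) and the −log10 q. Depth is unknown, so no counting interval was made.

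Peaks on the 5 nuclear chromosomes were merged where they shared 1 bp, and organelle peaks were left out. Overlap meant 1 bp. A TRB consensus was a stretch of at least 100 bp covered in 2 of 4 lists, with stretches up to 100 bp apart joined. Peak ends were within the chromosome lengths of the RefSeq TAIR10.1 assembly, which gave genes and sequences. Named members were, by mean percentile rank of fold in Col-0, the first 12, the first 8 in all 12 FLAG-TRB lists, under both FLAG-JMJ14 lists, gaining H3K4me3 in trb1/2/3 and gaining H3K27me3 in TRB3-ZF, and all genes of the gene lists under a member. Members, lists and rules were chosen with earlier results of these data known. Replicates carry no stated source of plants, so spread between them may be technical. Work was done in Python 3.11.15 with numpy 2.4.6, pandas 2.3.3 and matplotlib 3.10.9, and was tested on simulated lists. The alternatives tried were other peak thresholds, joining distances, overlaps, list lengths, search windows and leaving out each library.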

Additional observations from a re-analysis of the deposited data

How the results depend on the processing

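Peak calls are yes or no, so most counts move with thresholds and the number of lists. Leaving out 1 library gave 1436 to 2364 members, joining peaks up to 500 bp apart 831, and asking for −log10 q of at least 10 in the Col-0 lists 158. With that q in all 4 lists 916 regions passed, 158 of them members. Alternatives from here on for LHCB genes, photosynthesis genes, TRB and JMJ14 replicates, TRB3-ZF losses, the other TRB-ZF lines and the H3K4me3 block were chosen after seeing the data. At that q, in all 4 lists or in Col-0 only, 4 LHCB and 4 photosynthesis genes stayed under members, and these were the same genes. Leaving out a library gave 9 to 9 LHCB and 24 to 35 photosynthesis genes.

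TRB lay on 150 members when every replicate needed a peak, 231 with 50% overlap, 140 with FLAG lists cut to the shortest and 233 to 359 without a replicate. JMJ14 lay on 124 at q of at least 10 (−log10) and 236 to 250 with 1 list. H3K4me3 gains were 41 to 70 without a library. H3K27me3 in fwa was on 78 members at the higher q and 619 to 800 in single libraries. For TRB3-ZF, gains were 82 to 155 without a library, and losses 46 at the higher q and 181 to 263 without a library. TRB1-ZF gains were 15 and 56 to 98, its losses 21 and 75 to 137, TRB2-ZF gains 15 and 41 to 85, and its losses 27 and 117 to 186. TTAGGG was in 109 members within 100 bp of the summit, and AAACCCTA in 241. Of the alternative values, 41 moved by over 1.5 times and 40 did not.

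Replicate numbers pair no samples in the labels. With the replicate number as a block the rule again took 1249 members and H3K4me3 gains were again 38, both by construction. Over 11698 regions the deviations of same-numbered Col-0 and trb1/2/3 libraries correlated at -0.008 for H3K27me3 and 0.277 for H3K4me3. For H3K4me3, library 2 was the shorter list in both genotypes (16030 against 17126 peaks in Col-0, 16644 against 17764 in trb1/2/3).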

Other observations

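Beyond the LHCB genes, other nuclear genes of the photosynthetic machinery lay under members. This class, genes whose annotated product names a photosystem, chlorophyll, light harvesting or Rubisco, was chosen after the values of the members were seen, so its counts carry no test. Of 91 such genes, 24 (26.4%) were under members, the 9 LHCB genes above among them, and 7 (7.69%) under kept regions. Of all protein-coding genes 2.70% were under members and 21.6% under kept regions. Besides those 9, the 24 included RBCS1A, a small subunit gene of Rubisco (Col-0 folds 2.26 and 2.33). LHCA4 (2.54 and 3.44) and LHCA1 (2.33 and 2.22) belong to the photosystem I antenna, and LHCB5 (2.31 and 2.92) and LHCB6 (1.87 and 2.13) to the minor antenna. PSAD-1 and PSAD-2 of photosystem I and PORB of chlorophyll synthesis were also among the 24. Mean Col-0 ranks of the 24 ran from 2.19 to 80.9, with a median of 28.9, which is that of weak peaks.

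LHCA2 lay under 2 members, and its first by position was taken, so that each gene has 1 region below. Of these 24, 22 had H3K4me3 in both Col-0 lists, 18 in both trb1/2/3 lists and 24 in jmj14-1. In contrast, 115 of 1249 members (9.21%) had H3K4me3 in both Col-0 lists. No H3K27me3 peak lay on 22 of the 24 in any of the 8 lists of fwa and the TRB-ZF lines, the others being RBCS1A, with 1 fwa list, and LHCB2.3, with both TRB3-ZF lists. JMJ14 lay on 7 in both lists, and no FLAG-TRB list had a peak on 10. At a stricter −log10 q of at least 10, 4 of the 24 genes stayed under members. These were the 4 LHCB genes counted above, so no other gene of the class stayed.

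Ribosomal protein genes were under members at 4 of 344 (1.16%) and under kept regions at 19 (5.52%). Peak lists hold no expression, so a tie of either class to transcription was not tested.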
